A study of Mus musculus with 4 samples.

Results

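AP-1 is a family of transcription factors that bind DNA as pairs of bZIP proteins, and the chromatin at 9 of its genes was described in mouse embryoid bodies: the Fos family genes Fos, Fosb, Fosl1 and Fosl2, the Jun family genes Jun, Junb and Jund, and their partners Atf3 and Batf3. The members were chosen by name from 21851 protein-coding genes, and all 9 had a peak within 1000 bp of a transcription start site (TSS) in every library, as did 14494 protein-coding genes. ATAC-seq, in which a transposase inserts sequencing adapters wherever chromatin is open, was the measurement, and a peak is an interval where such insertions pile up above the local background. Embryoid bodies are aggregates in which embryonic stem cells leave self-renewal and form early lineages, and here they were collected on day 4. The WT and CTCF-K20R cells compared were both of the line E14Tg2A. In CTCF-K20R, lysine 20 of the chromatin organiser CTCF had been changed to arginine by CRISPR/Cas9, in the endogenous gene of stem cell clones. There were 2 libraries of each genotype, and how many clones stood behind them was not stated. All cells had been grown on fibroblast feeders in medium with a MEK inhibitor and a GSK3 inhibitor, and were then differentiated in hanging drops with serum and without LIF.

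Jun proteins can pair with each other, whereas Fos proteins need a Jun partner to bind DNA. The preferred AP-1 site reads TGACTCA, and pairs that contain an ATF protein prefer the cAMP response element (CRE), TGACGTCA. Fos, Fosb, Junb and Atf3 are immediate early genes: growth factors and stress switch them on within minutes, through kinase cascades that end at factors already bound to open promoters. At Fos the best known of these elements is the serum response element, in which the factor SRF binds a CArG box. Jun can be driven by Jun-ATF pairs at its own promoter.

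The upstream sequences of Fos, Jun, Junb and Jund show some of these elements. They were read 5′ to 3′ on the strand of the gene from the RefSeq genome of build mm10. The Fos stretch is chr12:85473570-85473869, on the plus strand, from 320 to 21 bases before the TSS. Capitals mark the CArG box and, 3 times, the short CRE motif TGACG on either strand.
Fos upstream: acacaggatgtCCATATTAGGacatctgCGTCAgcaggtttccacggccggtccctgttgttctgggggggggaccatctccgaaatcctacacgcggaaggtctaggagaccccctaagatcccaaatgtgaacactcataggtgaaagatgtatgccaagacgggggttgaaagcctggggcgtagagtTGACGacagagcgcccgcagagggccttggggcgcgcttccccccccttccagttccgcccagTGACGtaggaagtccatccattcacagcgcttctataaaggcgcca
The Jun stretch is chr4:95052223-95052472, on the minus strand, the 250 bases before the TSS, with the Jun-type site TGACATCA in capitals.
Jun upstream: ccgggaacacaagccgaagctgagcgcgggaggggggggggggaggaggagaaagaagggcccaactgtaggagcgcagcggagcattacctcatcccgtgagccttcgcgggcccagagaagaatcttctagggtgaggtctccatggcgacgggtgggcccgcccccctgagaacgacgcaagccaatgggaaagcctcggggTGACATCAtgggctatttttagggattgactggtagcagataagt
The Junb stretch is chr8:84978749-84978998, on the minus strand, from 280 to 31 bases before the TSS, with TGACG in capitals.
Junb upstream: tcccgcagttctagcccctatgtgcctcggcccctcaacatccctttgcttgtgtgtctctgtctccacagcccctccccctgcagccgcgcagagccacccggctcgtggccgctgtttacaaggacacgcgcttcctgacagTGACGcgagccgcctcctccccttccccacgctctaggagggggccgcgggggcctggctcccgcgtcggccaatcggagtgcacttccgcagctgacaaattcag
For Jund, 30 bases around the full CRE are given, chr8:70698724-70698753, on the plus strand.
Jund upstream: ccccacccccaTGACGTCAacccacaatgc

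Motifs were searched on both strands in the 300 bases from 250 before to 50 after each TSS. TGACTCA was in 0 of the 12 windows of the members and in 4.30% of 41438 windows of all protein-coding TSSs. TGACGTCA was in 1 of 12, that of Jund, beside 2.29% of all. TGACATCA was in 1 of 12, that of Jun, beside 2.88% of all. The short motif TGACG, which is part of TGACGTCA, was in 9 of 12 windows, of 7 genes (Atf3, Fos, Fosb, Fosl1, Fosl2, Junb and Jund), beside 23.8% of all. GC content ran from 50.7% (Fosl1) to 75.3% (Batf3) in the members' windows, mostly above the median of 56.3% over all windows. The CArG box of Fos lies before the searched window, 1.34% of all windows held such a box, and 0 of the 12 did. The members' windows for Fosb overlap each other, and a match describes letters only.

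Peaks were compared by the percentile of their −log10 p within the list of their own library, where 100 is the strongest peak. The lists held 59783 and 66703 peaks in WT against 51823 and 55832 in K20R. Reads were not used here, so depth is known only through the lists. The median summit pileup was 25 and 33 in WT against 29 and 38 in K20R, higher in the second replicate of each genotype. A promoter was called lower or higher when both K20R values lay beyond both WT values. With 2 against 2 libraries an exact two-sided permutation test cannot give a p below 0.33, which every non-overlapping member reached and no more. The study describes its replicates as biological and the experiments as independent, without saying whether the differentiations were separate.

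Of the 9 promoters, 4 were lower in K20R (Fos, Fosl2, Jun and Atf3), 2 were higher (Junb and Jund) and 3 overlapped (Fosb, Fosl1 and Batf3). Over all genes with a promoter peak in the 4 lists, 32.2% were lower and 15.8% were higher on this scale. The median K20R minus WT difference was −3.76 points over the members and −0.83 points over all genes. Because promoter peaks as a class stood slightly lower in the K20R lists (medians 86.7 and 87.5 in WT, 85.0 and 86.0 in K20R), each peak was also ranked among promoter peaks alone. On that scale 3 members were lower (Fos, Fosl2 and Jun), beside 23.0% of all genes, and 2 were higher (Junb and Jund), beside 23.9%. The medians were −7.01 points over the members and 0.07 over all genes. Both shares lie near those of all genes, so the members are described singly below. Ranked by summit fold instead, none of the 6 called promoters separated the genotypes, whereas 24.6% of all genes were lower and 14.2% higher.

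**Figure D1:**
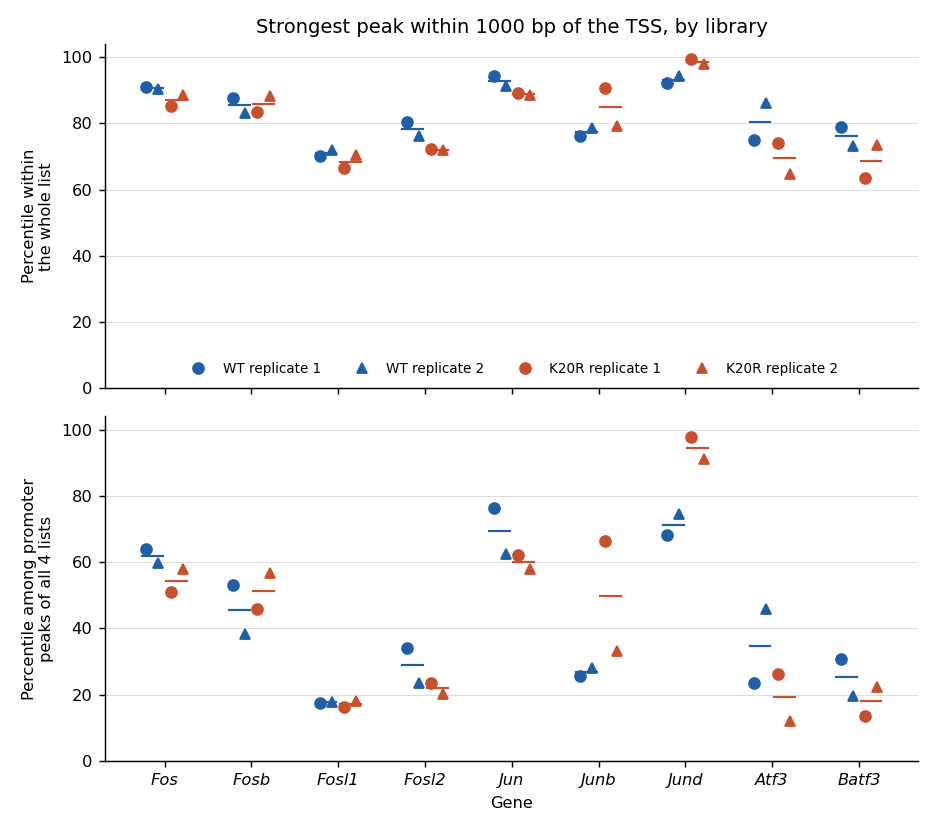
Percentile of the strongest peak within 1000 bp of a TSS for each AP-1 gene (x axis) in each library, within the whole list (upper panel) and among promoter peaks present in all 4 lists (lower panel). Points are libraries and short lines the means of each genotype; Jund and Junb have both K20R points above both WT points, while Fos, Fosl2 and Jun have them below in both panels.

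Fos (ENSMUSG00000021250.13, chromosome 12, 85473890 to 85477273, plus strand) encodes the archetypal immediate early partner of Jun. Its promoter peak stood at percentiles 90.9 and 90.5 in WT against 85.3 and 88.6 in K20R. Among promoters the values were 63.8 and 59.9 in WT against 50.9 and 58.0 in K20R, a mean of 61.9 ± 2.81 (SD, n = 2) against 54.4 ± 5.06 (exact permutation p = 0.33). The groups did not overlap on either scale. The summit lay 264 and 261 bp from the TSS in WT against 309 and 105 bp in K20R. The recovered summit pileups were 125 and 182 in WT against 100 and 179 in K20R and overlapped. They were also divided by the library's median over regions with a peak in all 4 lists. As log2 this gave 1.72 and 1.70 in WT against 1.36 and 1.63 in K20R, without overlap. On that scale 14.05% of all genes were lower. Ranked by summit fold instead, Fos was 3.27 points higher in K20R with overlapping groups.

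Fosb (ENSMUSG00000003545.3, chromosome 7, 19302696 to 19310051, minus strand), another immediate early member, had 2 peaks within 1000 bp of its 3 TSSs. The stronger lay inside the gene, with a summit 934 to 939 bp from the nearest TSS, and stood at 87.7 and 83.3 in WT against 83.4 and 88.2 in K20R. The other, 39 to 62 bp upstream of the TSS, stood at 69.9 and 81.7 in WT against 74.2 and 65.7 in K20R. Neither separated the genotypes.

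Fosl1 (ENSMUSG00000024912.6, chromosome 19, 5447547 to 5455946, plus strand), which encodes FRA1, stood at 70.3 and 72.0 in WT against 66.4 and 70.5 in K20R. Its values among promoters were 17.3 and 17.9 in WT against 16.2 and 18.1 in K20R, the smallest difference of the members on that scale (−0.42 points). Fosl2 (ENSMUSG00000029135.10, chromosome 5, 32135801 to 32157842, plus strand), which encodes FRA2, stood at 80.5 and 76.1 in WT against 72.3 and 71.9 in K20R. Both K20R values were below both WT values, and among promoters WT replicate 2 (23.6) and K20R replicate 1 (23.5) nearly touched.

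Jun (ENSMUSG00000052684.4, chromosome 4, 95049034 to 95052222, minus strand) encodes c-Jun, which can form AP-1 with itself or with any Fos protein. Its promoter peak was the strongest of the members in WT replicate 1, at 94.3, with 91.3 in WT replicate 2 and 89.2 and 88.6 in K20R. Among promoters it stood at 76.4 and 62.5 in WT against 62.2 and 58.0 in K20R, a mean of 69.5 ± 9.85 against 60.1 ± 3.01 (SD, n = 2 each; exact permutation p = 0.33). WT replicate 2 and K20R replicate 1 differed by less than the spread within WT. The interval of the peak was wider in K20R, with 3471 and 3818 bp against 2309 and 3235 bp in WT. Summit pileups were 157 and 218 in WT against 144 and 232 in K20R and overlapped.

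Jund (ENSMUSG00000071076.6, chromosome 8, 70698949 to 70700616, plus strand) is the Jun gene that most cells express steadily. It had the strongest promoter peak of the members in K20R. It stood at 92.2 and 94.3 in WT against 99.5 and 97.8 in K20R, and among promoters at 68.3 and 74.4 in WT against 97.9 and 91.0 in K20R. The means among promoters were 71.3 ± 4.33 in WT against 94.4 ± 4.84 in K20R (SD, n = 2 each), 23.1 points apart (exact permutation p = 0.33). Its summit pileup was 140 and 215 in WT against 279 and 385 in K20R. The interval was 1145 and 1064 bp wide in WT against 1499 and 1962 bp in K20R. Pileup and width also separated the genotypes. By summit pileup relative to the library's median, as for Fos, 40.75% of all genes were higher in K20R and 14.05% lower. A higher call on that scale, which Jund also had, was thus a common one. The local background at the Jund summit was higher too, at 23.3 and 29.4 in WT against 41.3 and 62.5 in K20R. By summit fold, the ratio of pileup to this background, Jund was 2.70 points lower in K20R with overlapping groups. The 3 protein-coding genes whose 4 values among promoters were most like those of Jund, by Euclidean distance over the 4 libraries, were Mpv17l2 (distance 4.52), Ocel1 (4.71) and Hook2 (5.20), which all lie on chromosome 8.

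Junb (ENSMUSG00000052837.6, chromosome 8, 84976910 to 84978718, minus strand), an immediate early gene, had 3 peaks within 1000 bp of its TSS that did not move together. The strongest, upstream, had its summit 1291 to 1299 bp from the TSS and stood at 76.3 and 78.6 in WT against 90.6 and 79.3 in K20R. The peak over the TSS itself stood at 62.6 and 65.9 in WT against 48.3 and 48.0 in K20R. The peak inside the gene was the weakest, at 9.4 and 11.9 in WT against 41.6 and 33.2 in K20R. The upstream and inner peaks were thus higher and the peak over the TSS lower in K20R. With a window of 500 bp, or with distance taken from the summit, the promoter of Junb was represented by the TSS peak and was 16.2 points lower in K20R. Among promoters the upstream peak stood at 25.7 and 27.9 in WT against 66.4 and 33.2 in K20R, so that its mean difference of 23.0 points rested mainly on K20R replicate 1.

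Over the strongest promoter peak of each member, the interval was wider in K20R at 4 (Fosb, Jun, Junb and Jund), beside 27.0% of all genes, and narrower at 1 (Atf3), beside 14.3%. The median width over all these genes was 1134 and 1166 bp in WT against 1150 and 1238 bp in K20R. For Atf3 the difference was small, with 1582 and 1522 bp in WT against 1499 and 1521 bp in K20R.

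Atf3 (ENSMUSG00000026628.13, chromosome 1, 191170296 to 191218039, minus strand) encodes a stress-induced factor that pairs with Jun proteins, and it has 2 TSSs. The peak at the downstream TSS stood at 75.0 and 86.1 in WT against 74.0 and 64.9 in K20R. The WT replicates differed far more from each other than WT replicate 1 did from K20R replicate 1. Among promoters the groups overlapped, at 23.5 and 45.7 in WT against 26.3 and 12.0 in K20R. Near the upstream TSS a weak region (191216297 to 191217146) stood at 35.5 and 20.0 in WT and at 6.9 in K20R replicate 2, with no peak in K20R replicate 1. Batf3 (ENSMUSG00000026630.9, chromosome 1, 191098325 to 191108943, plus strand), known for its role in dendritic cells, stood at 78.9 and 73.2 in WT against 63.6 and 73.4 in K20R, with overlapping groups.

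**Figure D2:**
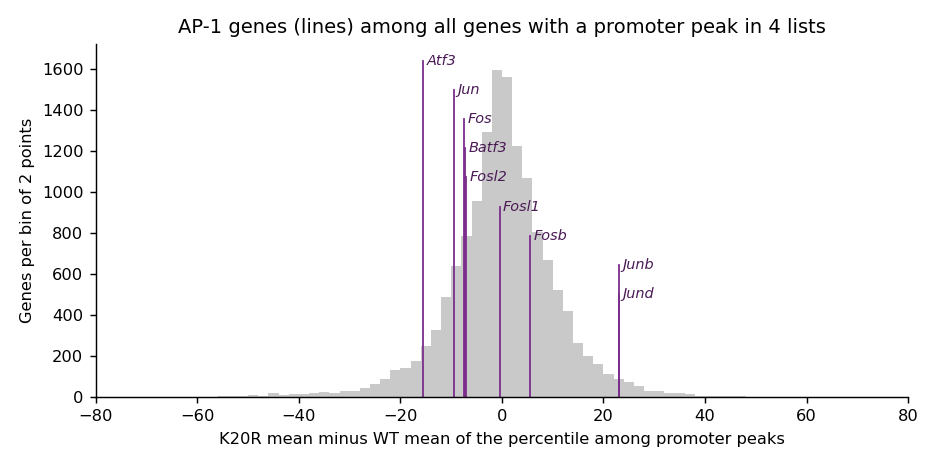
Histogram of the K20R mean minus WT mean of the percentile among promoter peaks (x axis, points) for 14494 genes, as the number of genes per bin of 2 points (y axis); vertical lines mark the AP-1 genes and their heights only separate the names. Most members lie left of 0, within the body of the distribution, while Junb and Jund lie at 23.0 and 23.1.

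Within 50 kb of a member's TSS, with the promoters included, the 4 lists gave 117 merged regions, of 80380 in all. Of these, 71 had a peak in all 4 lists and are called common, and 1 lay within reach of both Atf3 and Batf3 and is counted once. The number of peaks was 101 and 111 in WT against 86 and 95 in K20R, a mean of 106 ± 7.07 against 90.5 ± 6.36 (SD, n = 2 each; exact permutation p = 0.33). That is 14.6% fewer in K20R, beside 14.9% fewer over all peaks, and the difference was 0 when every list was reduced to the same number of strongest peaks. Regions that were listed in both replicates of 1 genotype and in none of the other are called restricted. There were 10 WT-restricted regions near the members (8.55%, beside 10.4% of all regions) and 3 K20R-restricted ones (2.56%, beside 3.10%). Near the members as a group, restriction was therefore no more frequent than elsewhere. With lists of equal length the counts were 5 and 4. The WT-restricted count rose to 16 without WT replicate 1 and to 19 without K20R replicate 2, and the K20R-restricted count to 7 without WT replicate 2 and to 5 without K20R replicate 2. Leaving out a library loosens the rule of restriction, which tends to raise these counts by construction.

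**Figure D3:**
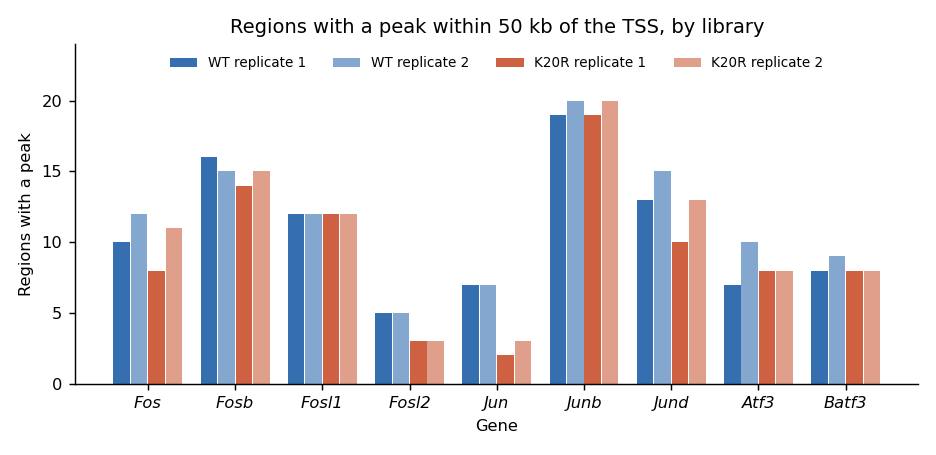
Number of regions with a peak within 50 kb of the TSS of each AP-1 gene, 1 bar per library. Around Jun 7 regions had a peak in each WT library and 2 and 3 in the K20R libraries, around Fosl2 5 and 3, while around Fosl1 all 12 had a peak in every library.

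The restricted regions were unequal in number between the members. Jun had 3 of its 8 regions WT-restricted, all outside protein-coding genes, and 7 regions with a peak in each WT library against 2 and 3 in K20R. Their summits lay 16705 bp downstream, 29492 bp upstream and 46731 bp upstream of the TSS. They were weak, at 16.6 and 37.8, at 26.3 and 10.5, and at 28.3 and 15.0 in the WT libraries. The region 16705 bp downstream held TGACATCA, the letters found in the promoter of Jun. Jund also had 3: in an exon of Pgpep1 49969 bp upstream (42.4 and 47.9), 27176 bp upstream (19.1 and 8.7), and in an intron of Iqcn 6000 bp downstream (22.6 and 26.2). Single WT-restricted regions lay 10977 bp upstream of Fos (18.4 and 15.5), in an exon of Fosb 4441 bp downstream of a TSS (25.1 and 18.5), 14625 bp upstream of Fosl2 (11.4 and 17.5) and in an intron of Atf3 6829 bp from a TSS (24.5 and 38.4). The K20R-restricted regions lay 21567 bp upstream of Fos (8.4 and 2.1), in an exon of Fosl2 17492 bp downstream (17.4 and 28.1) and 2305 bp upstream of Jund (18.9 and 30.7). All of them stood below the middle of their lists. Called peaks are missing from the numbering of every list, so absence can mean removal; where no number was missing at the place, 7 WT-restricted and 1 K20R-restricted region were left, the latter at Jund.

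Fos had the strongest surroundings that lie outside other genes. The region 12150 bp downstream (chromosome 12, 85485680 to 85486696) was in the top of every list, at 99.3 and 98.4 in WT against 96.3 and 97.4 in K20R, above the promoter itself. The region 18593 bp upstream stood at 97.8 and 99.2 in WT against 95.9 and 94.7 in K20R. Ranked among common regions, both were lower in K20R, by 2.5 and 4.2 points. Larger losses were seen at weaker regions. The region 43302 bp upstream stood at 75.8 and 83.5 in WT, at 10.1 in K20R replicate 2 and had no listed peak in K20R replicate 1, where 1 peak number was missing at the place. The region 5498 bp downstream stood at 47.0 and 45.1 in WT and at 3.9 in K20R replicate 1, with no peak in K20R replicate 2. The regions 18386 and 23084 bp downstream did not follow. The former stood at 54.5 in both K20R libraries and at 59.8 in WT replicate 2, with no peak in WT replicate 1. The latter overlapped, with 49.9 and 47.2 in WT against 42.6 and 52.4 in K20R.

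The strong region 12150 bp downstream of Fos is shown by the bases around its strongest summit, 100 to each side on the plus strand (chr12:85485940-85486140). It held a CArG box and TGACG 3 times, as did the stretch upstream of the TSS.
Fos 12 kb downstream: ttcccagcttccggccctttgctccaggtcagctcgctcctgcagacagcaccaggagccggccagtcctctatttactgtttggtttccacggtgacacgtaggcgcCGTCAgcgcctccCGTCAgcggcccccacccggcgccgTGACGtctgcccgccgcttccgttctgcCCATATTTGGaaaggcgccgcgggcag
Of the 117 regions, 6 held a CArG box within 100 bp of the strongest summit (5.13%, beside 0.984% of all regions), near Fos (2), Fosb, Fosl1, Junb and Batf3. Among them were the Fos promoter region, with the box printed above, and the Fosb peak beside the TSS. The one near Fosl1 lay at the promoter of Mus81. The 117 include promoters of members and of other genes, and the shares over all regions were not matched for this. The short motif TGACG was in 26 (22.2%, beside 10.7%), and the regions near members had a median GC content of 58.2% against 53.2% over all. A CTCF consensus was in 4 (3.42%, beside 5.97%). The AP-1 site TGACTCA was in 4 (3.42%, beside 5.34%), near Fosb, Jund, Atf3 and Batf3. The strongest of these regions lay 6384 bp upstream of the far TSS of Atf3 (chromosome 1, 191223946 to 191225500) and stood at 84.5 and 83.4 in WT against 74.6 and 79.9 in K20R, without overlap. Its bases, chr1:191224323-191224523, have the AP-1 site and TGACG in capitals.
Atf3 upstream region: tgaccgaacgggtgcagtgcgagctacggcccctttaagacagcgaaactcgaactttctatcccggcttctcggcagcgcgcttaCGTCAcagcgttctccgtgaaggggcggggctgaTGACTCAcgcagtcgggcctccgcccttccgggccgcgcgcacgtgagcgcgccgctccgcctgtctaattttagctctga

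**Figure D4:**
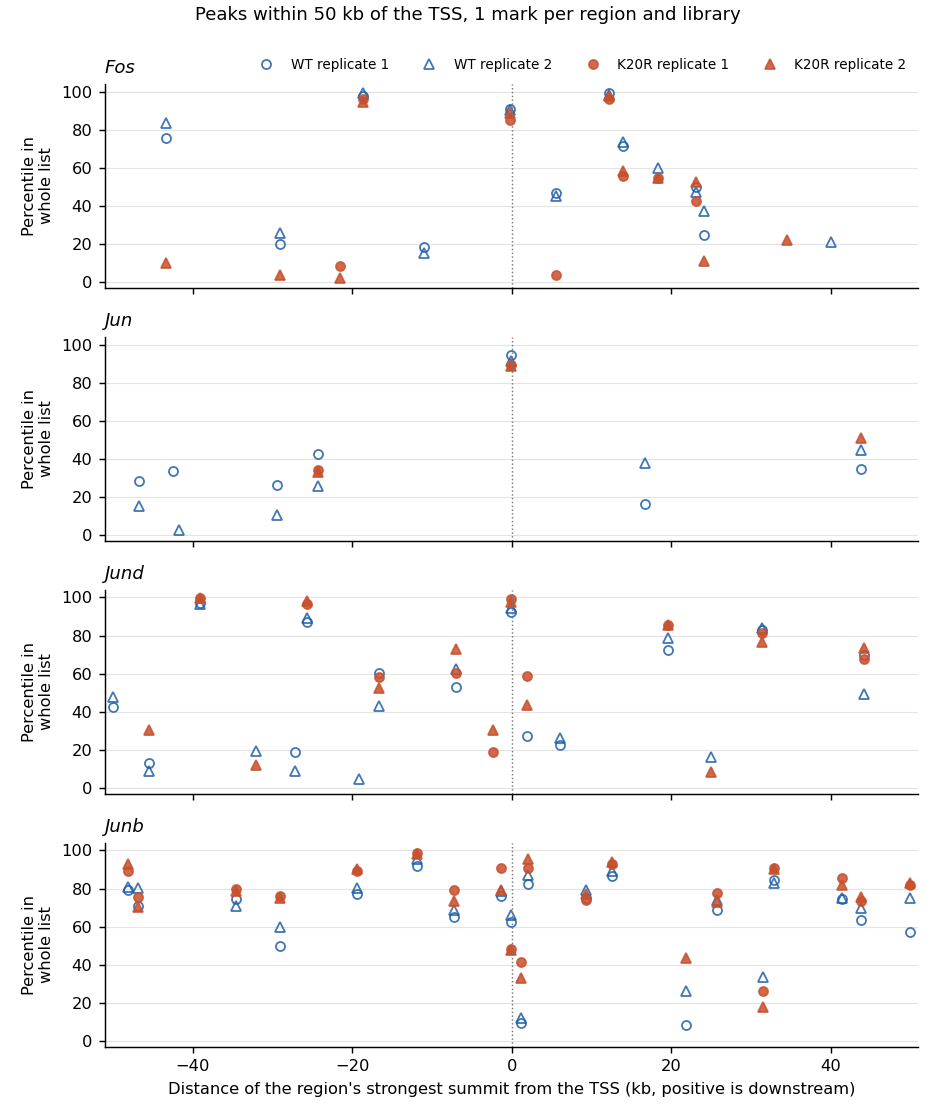
Percentile within the whole list (y axis) of every region within 50 kb of Fos, Jun, Jund and Junb against the distance of its strongest summit from the TSS in kb (x axis); open marks are WT, filled marks K20R, circles replicate 1 and triangles replicate 2, and a missing mark is a list with no peak. Some weak regions around Jun and Fos have WT marks only or much lower K20R marks, and others have similar marks or K20R marks only. Around Junb and Jund the K20R marks mostly lie above the WT marks.

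Of the 103 regions outside the promoter window, 58 were common. Ranked among common regions, 14 were lower and 24 higher in K20R, beside 25.5% and 29.2% of all 38527 common regions. Of the 58, 25 lay at promoters of other genes. Of the 33 outside every promoter, 12 were lower, beside 28.7% of all 23993 such common regions, and 12 were higher, beside 29.8%. The higher ones clustered by locus. Near Junb and Jund 19 of 22 were higher, 0 were lower and 3 overlapped, with a median difference of 15.6 points. Of the 10 among them outside every promoter, 8 were higher and 2 overlapped. Near the other 7 members 14 of 36 were lower, 5 were higher and 17 overlapped, with a median of −2.96 points, and of their 23 outside every promoter 12 were lower and 4 higher. The strongest distal region of Junb, at the promoter of Hook2 11887 bp upstream, stood at 91.8 and 95.4 in WT against 98.9 and 97.9 in K20R. That of Jund, at the promoter of Pgpep1 39113 bp upstream, stood at 96.9 and 96.7 in WT against 99.6 and 99.8 in K20R.

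Elsewhere the strongest distal regions did not share a direction. Fosb had 2 strong regions outside other genes that were lower, 10041 bp upstream (97.1 and 95.7 in WT, 86.9 and 88.9 in K20R) and 16556 bp upstream (94.2 and 92.3 in WT, 85.9 and 84.0 in K20R). In an exon of Fosb 5665 bp downstream a region was higher instead, from 43.8 and 53.7 (WT) to 70.8 and 69.2 (K20R). Its strongest neighbour, the promoter of Ercc1 35263 bp upstream, overlapped at 96.4 and 95.8 in WT against 97.0 and 94.0 in K20R. The promoter of Mus81, 41637 bp downstream of Fosl1, was lower, from 95.7 and 93.7 to 85.4 and 86.2. The region 2671 bp upstream of Fosl2 stood at 52.5 and 52.9 in WT against 52.0 and 56.5 in K20R. The region 43846 bp downstream of Jun stood at 34.7 and 44.6 in WT against 50.8 in K20R replicate 2, with none in K20R replicate 1. Near Batf3 the promoter of Nsl1, 35243 bp upstream, overlapped (70.2 and 81.2 in WT, 79.1 and 74.7 in K20R), while an intron region of the same gene 22836 bp upstream fell from 73.7 and 69.0 to 31.9 and 36.4.

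The loci of Junb and Jund were set beside their surroundings, since both lie on chromosome 8. Among common regions within 1 Mb, without the gene's own, 71.6% of 102 around Junb and 74.6% of 134 around Jund were higher in K20R, with medians of 11.1 and 9.06 points. Around the other 7 members the medians ran from −1.72 to 2.44 points. Over all 38527 common regions the median was 0.61 and 29.2% were higher, and over the 2086 of chromosome 8 it was 5.12 and 49.5%. Regions over a wide stretch around both genes were thus also higher, beside the Jund promoter peak and the upstream peak of Junb. The part of the stretch in these peaks was not tested, and the Junb peak over the TSS was lower. Ranked among promoter peaks of the same chromosome, Jund was still higher (66.6 and 71.9 in WT, 89.9 and 80.3 in K20R) and Junb overlapped (23.6 and 24.9, and 52.4 and 21.8). Fos, Fosl2 and Jun were still lower on that scale. Ranked among the common regions within 1 Mb, Jund also overlapped, with 81.7 and 81.0 in WT against 92.3 and 81.0 in K20R. On this scale Jun and Atf3 were lower, Fosb was higher and the other members overlapped. Jun was ranked among only 24 regions (87.5 and 75.0 in WT, 70.8 and 66.7 in K20R). Atf3 was ranked among 43 (58.1 and 76.7, and 55.8 and 48.8) and Fosb among 113 (74.3 and 69.0, and 76.1 and 81.4). The nearest WT and K20R values of each were thus close.

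**Figure D5:**
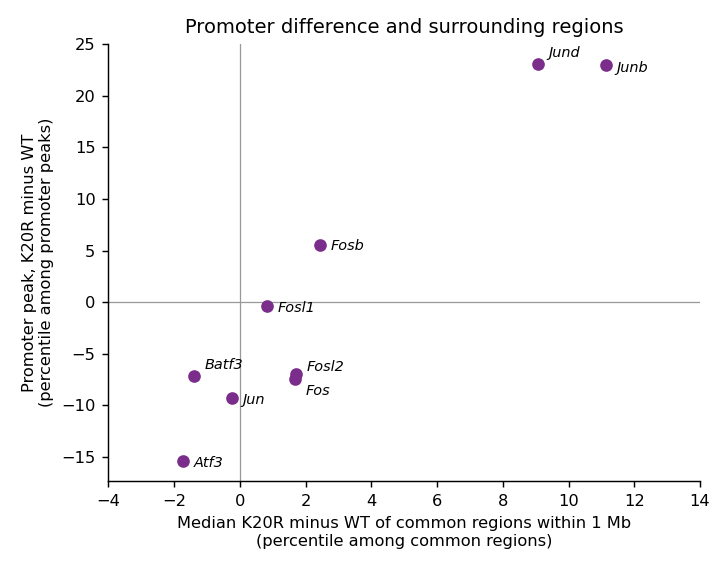
K20R minus WT difference of each member's promoter peak, in percentile points among promoter peaks (y axis), against the median K20R minus WT difference of the common regions within 1 Mb, in percentile points among common regions (x axis); 1 point per gene. Junb and Jund stand apart on both axes, with surroundings at 11.1 and 9.06 points, and the other members have surroundings between −1.72 and 2.44 points.

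Genes of the same pathways were counted by the same rule, from lists of other bZIP genes, immediate early genes, the kinases and SRF cofactors upstream of AP-1, and AP-1 targets. The lists held 22, 25, 24 and 24 genes, 4 of them found under a newer symbol, and those without a promoter peak in all 4 libraries were not counted. Over all genes, 23.0% were lower and 23.9% higher among promoters, and 32.2% and 15.8% in the whole list. Among promoters, 4 of 20 other bZIP genes were lower and 5 higher. Creb1, a CRE-binding activator, was lower (72.9 and 76.0 in WT, 67.6 and 67.8 in K20R), as was Nfe2l2, the oxidative stress factor NRF2. The stress gene Ddit3 was higher (46.8 and 60.2 in WT, 77.4 and 77.6 in K20R), as was Batf, whose peak was among the weakest of all promoters.

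Of 25 immediate early genes, 3 were lower and 9 higher, with a median difference of 2.69 points. The 3 lower ones were Nr4a1, an orphan nuclear receptor (77.5 and 69.7 in WT, 31.4 and 45.2 in K20R), Egr2, a zinc finger factor (50.5 and 44.3, and 27.7 and 26.6), and Dusp6, a phosphatase that switches off ERK (82.5 and 82.4, and 64.7 and 58.7). Among the higher were Ier2, Ier3 and Dusp4, of which Ier2 and Dusp4 also lie on chromosome 8. Of 24 MAPK and SRF genes, 1 was lower, the ERK gene Mapk3 (32.8 and 48.4 in WT, 15.8 and 20.0 in K20R), and 5 were higher, among them Mapk7, Mapk9 and, on chromosome 8, Map2k7. Of 19 AP-1 targets, 4 were lower, among them Cd44, Plaur and Hbegf, and 5 were higher, among them Spp1 and, on chromosome 8, Mmp2 and Hmox1. The peaks of Spp1 (1.9 and 0.5 in WT, 8.2 and 5.7 in K20R) and Plaur (6.8 and 13.4, and 6.1 and 4.4) were weak among promoters. On the scale of the whole list, lower and higher counts were 9 and 2 for other bZIP genes, 5 and 7 for immediate early genes, 6 and 3 for MAPK and SRF genes, and 8 and 3 for targets.

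Promoter peaks of cell type markers also differed between the genotypes, and the part of this in the AP-1 results was not tested. Cell types themselves were not measured here. All 4 endoderm markers with a promoter peak in every list (Sox17, Foxa2, Gata4 and Gata6) were lower among promoters (median −27.0 points), as were 3 of 4 neuroectoderm markers. The Sox17 peak was among the weakest of all promoters (5.3 and 1.4 in WT, 0.04 and 1.1 in K20R). Of 6 primitive streak and mesoderm markers 2 were lower and 3 higher, and of 6 pluripotency markers 0 were lower and 3 higher. Of 11 fibroblast markers, chosen for the feeder layer, 7 had a promoter peak in all lists, of which 2 were lower and 1 higher, and 3 (Col3a1, Lum and Postn) had none in any list. Dcn had a peak at 67.9 and 77.7 in WT, at 24.7 in K20R replicate 2 and none in K20R replicate 1, and so was not counted. The mean percentile of the 7 counted fibroblast markers was 59.4 and 64.0 in WT against 52.0 and 61.0 in K20R. Of the mesoderm markers, T was lower among promoters (40.5 and 36.9 in WT, 16.6 and 12.7 in K20R). Pdgfra was higher (39.5 and 35.2 in WT, 56.4 and 58.1 in K20R), and Msgn1 had no promoter peak in any library.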

How the data were processed

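ATAC-seq peak lists of 2 WT and 2 CTCF-K20R day 4 embryoid body libraries were used, grouped by their labels. Per the submitters' processing notes and methods, reads were trimmed with Trim Galore, aligned to mm10 with Bowtie2, and peaks were called with MACS2. The authors deposited for each peak an interval, a summit, a score, a fold, that is a ratio of summit pileup to local background, and −log10 p and −log10 q of the summit. All are peak-caller values of the single library. Each list holds 50.5% to 60.8% of its peak numbers, so peaks were removed by a rule that is not given in the sources used here.

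From these, peaks within 1000 bp and 50 kb of GENCODE vM21 basic TSSs of protein-coding transcripts were taken, and −log10 p was ranked within each list, among promoters or among common regions. Listed symbols missing from the annotation were matched through RefSeq synonyms. Peaks sharing at least 1 bp were merged. Summit pileups were recovered from fold and p, and 100% came out whole within 0.02. For shares over all genes they were divided by the library's median over common regions and taken as log2. Tests were exact two-sided permutation tests over libraries. The ranking was tested on simulated data. Named are the 9 genes, every restricted region, the strongest distal region of each gene and, per list, up to 3 genes in each direction non-overlapping on both scales; further regions and the markers named were chosen after their values were seen. The members, lists and settings were chosen with earlier results of these data known. Some genes and sequences are not reported here. Alternatives are given at the end. Python 3.11.15, pandas 2.3.3, numpy 2.4.6 and pysam 0.24.0 were used.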

Additional observations from a re-analysis of the deposited data

How the results depend on the processing

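Ranked by summit fold, 0 members were lower and 0 higher (24.6% and 14.2% of all genes), and the differences of Fos (3.27 points) and Jund (−2.70 points) changed sign. With a 500 bp window or distance from the summit, 5 members were lower and 1 higher, and Junb turned to −16.2 points. Of all genes, 31.9% were lower and 15.8% higher with that window, and 31.8% and 15.9% with summit distance. Further alternatives chosen after seeing the data ranked peaks within the chromosome or among regions within 1 Mb. The former gave 3 members lower and 1 higher, beside 22.5% and 23.5% of all genes. The latter gave 2 lower and 1 higher, and its share over all genes is not given. WT-restricted regions numbered 3 at −log10 q of at least 5, 6 within 20000 bp, 20 within 100000 bp and 5 with equal list lengths. K20R-restricted regions numbered 6 within 100000 bp, 4 with equal list lengths and 1 with no missing peak number. The difference in peaks per library was −5.5 at −log10 q of at least 5, −7.5 within 20000 bp, −23.5 within 100000 bp and 0 with equal list lengths, which have fewer WT peaks by construction. Leaving out each library gave 4 to 6 members lower and 2 to 3 higher (42.3% to 50.0% and 25.03% to 30.98% of all genes), 11 to 19 WT-restricted and 4 to 7 K20R-restricted regions, and −10.5 to −20.5 peaks. Leaving out a library or widening the window tends to raise restricted counts by construction. Shares of restricted regions over all regions are not given for these alternatives. The cause of the other changes was not tested.

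Replicate numbers were shared between genotypes, but deviations of same-numbered libraries correlated at only 0.04 over 14494 genes. Compared within numbers, as a replicate block, 5 members were lower and 2 higher, beside 41.3% and 21.7% of all genes. The mean difference in peaks, −15.5, is the same with or without the block by construction. Of 107 differences of single members under the other alternatives, 9 had the opposite sign: 4 of Fosb, 2 of Junb and 1 each of Fos, Fosl1 and Jund. Depth is known only from the lists, and 2 libraries per genotype limit every comparison.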
